A study of Mus musculus with 8 samples.

Results

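The D and E cyclins, the kinases they switch on and the inhibitor that restrains those kinases were followed across 4 groups of mouse embryonic stem cells. The set has 9 genes, taken by symbol from the 47729 gene identifiers counted: Ccnd1, Ccnd2, Ccnd3, Ccne1, Ccne2, Cdk2, Cdk4, Cdk6 and Cdkn1b. Each symbol matched 1 identifier, and each of the 9 genes passed the filter on low counts, which left 16515 genes for testing. All cells were E14TG2a, a feeder-independent embryonic stem cell line of 129/Ola origin, kept for 48 h in medium with 15% serum and the cytokine LIF. WT cells were unmodified. QKO cells carried TCF7(-/-), TCF7L1(-/-), TCF7L2(-/-) and LEF1(-/-), that is, both copies of all 4 TCF/LEF genes were disrupted. QT7 and QT7L1 cells were QKO cells given back a single copy of TCF7 or of TCF7L1, going by the sample titles. The genotype tags are the other way round: they give TCF7L1(+/-) for QT7 and TCF7(+/-) for QT7L1, so the titles are used here only as names. Each group had 2 libraries, named as biological replicates 1 and 2 for WT, with no clone given, and as clone A and clone B for each of the other groups.

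Passage from G1 into S phase of the cell cycle is driven by cyclin-dependent kinases. D cyclins bind CDK4 and CDK6, E cyclins bind CDK2, and both complexes phosphorylate the retinoblastoma protein, which then releases E2F factors to switch on S-phase genes. The protein p27, encoded by Cdkn1b, binds cyclin E-CDK2 and blocks it. Mouse embryonic stem cells are known for a short G1 phase with high cyclin E-CDK2 activity, and the cyclin D1 gene is a textbook target of beta-catenin and TCF/LEF factors.

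Upstream sequence from RefSeq on GRCm38.p6 was on hand for 6 of the 9 genes; Ccnd1, Ccnd2 and Ccne2 had no entry. The windows of Cdk4 and Cdk2 are shown because these kinase genes, both on chromosome 10, differed in whether they passed the tests given later. They run 5′ to 3′ up to the annotated start, from chr10:127063285-127063533 on the plus strand for Cdk4 and from chr10:128705052-128705301 on the minus strand for Cdk2. Capitals mark matches on either strand to the E-box CACGTG, to the TCF/LEF letters CTTTGAA (also CTTTGAT, also CTTTGTA, also CTTTGTT), or to the E2F letters TTTCCCGC, TTTGGCGC, TTTCGCGC or TTTGCCGC; no matches overlap.
Cdk4: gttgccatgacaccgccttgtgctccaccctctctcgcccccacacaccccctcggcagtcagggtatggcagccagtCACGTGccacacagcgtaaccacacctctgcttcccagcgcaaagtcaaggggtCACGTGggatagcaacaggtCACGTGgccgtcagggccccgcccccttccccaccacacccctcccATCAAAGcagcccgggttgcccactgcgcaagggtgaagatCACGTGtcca
Cdk2: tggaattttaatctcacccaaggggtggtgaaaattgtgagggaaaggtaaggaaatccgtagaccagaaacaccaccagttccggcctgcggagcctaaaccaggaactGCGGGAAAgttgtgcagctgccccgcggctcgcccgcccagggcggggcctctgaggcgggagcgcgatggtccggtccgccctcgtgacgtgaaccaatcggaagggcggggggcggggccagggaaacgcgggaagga
The Cdk4 window held the E-box 4 times and 1 TCF/LEF match, and the Cdk2 window held 1 E2F match. Over 32851 windows of 250 bases upstream of a start, 6.02% held the E-box at least once and 0.0609% held it 3 or more times. The TCF/LEF letters stood in 14.8% of the windows and the E2F letters in 1.86%. In the 250 bases before their starts, Cdk6 held 1 E-box, and Cdkn1b, Ccne1 and both starts of Ccnd3 held none of the motifs. In QKO against WT the log2 differences of Cdk4 and Cdk2 were near each other (0.38 ± 0.10 and 0.26 ± 0.10, SE). Whether the motifs bear on the levels was not tested.

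Each library had between 31.57 and 43.36 times 1e+06 counts. As 9 genes are few beside 16515, each comparison is given with the share of all genes called in it. Levels are library-scaled counts (CPM, counts per 1e+06), and a gene was called when its adjusted p was under 0.05 by edgeR's quasi-likelihood F test with Benjamini-Hochberg adjustment over all genes. The stem cell factors Pou5f1, Sox2 and Nanog were abundant in every group, with mean levels of 1400 to 1890, 252 to 306 and 298 to 595 CPM. Of the genes targeted in QKO, transcripts stayed countable: Tcf7 averaged 60.7 CPM in WT and 13.8 in QKO, Tcf7l1 averaged 71.2 and 38.7, Lef1 4.49 and 0.852, and Tcf7l2 7.33 and 7.36. Tcf7 averaged 18.8 CPM in QT7 and 11.4 in QT7L1, and Tcf7l1 averaged 24.9 and 32.2. By edgeR, neither named factor was called higher than in QKO: Tcf7 in QT7 was at log2 0.44 ± 0.36 (adjusted p = 0.41) and Tcf7l1 in QT7L1 at -0.26 ± 0.15 (adjusted p = 0.217), while Tcf7l1 was lower in QT7 than in QKO (-0.64 ± 0.15, adjusted p = 0.0137). Between the lines, Tcf7 was at 16.6 and 20.9 CPM in QT7 against 10.1 and 12.7 in QT7L1, and Tcf7l1 at 27.4 and 22.4 against 36.9 and 27.5. Both differences lie in the direction of the titles, with libraries that do not overlap, but neither passed (0.72 ± 0.37 for Tcf7 and -0.37 ± 0.15 for Tcf7l1, QT7 over QT7L1, adjusted p = 0.509 and 0.42). Counts over a whole gene do not show whether a transcript is full length. Fibroblast markers differed between libraries within a group: the summed level of 15 markers was 139 and 89.3 CPM for WT, 177 and 52.3 for QKO, 47.9 and 82.9 for QT7, and 47.5 and 59.4 for QT7L1. One marker of the 15 had no counts in WT and in QKO replicate 1, and up to 5 had none in the others. In bulk RNA, a lower share of cells with a transcript and less of it per cell cannot be told apart.

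QKO cells held more D-cyclin and Cdk4 transcript and less Cdkn1b transcript than WT cells. In QKO against WT, 4 of the 9 genes rose (Ccnd1, Ccnd2, Ccnd3 and Cdk4), 1 fell (Cdkn1b) and 4 did not pass (Ccne1, Ccne2, Cdk2 and Cdk6). Among all genes 26.4% were called, 11.7% as higher and 14.7% as lower in QKO. The median log2 difference was 0.53 over the 9 genes and -0.01 over all genes. As the 9 genes were chosen with earlier results of these data known, this contrast describes them and tests nothing. In QT7 against QKO, 7 of the 9 fell and 1 rose, where 26.9% of all genes were called (12.1% lower and 14.8% higher). In QT7L1 against QKO, 6 fell and 1 rose, where 29.7% of all genes were called (13.9% lower and 15.9% higher). These comparisons share the QKO libraries, so they are not independent of each other. With library totals in place of TMM scaling, the share of higher calls among all calls went from 44.3 to 30.9% in QKO against WT and from 55.1 to 70.4% in QT7 against QKO; each of the 9 genes kept its direction in the 3 comparisons.

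**Figure D1:**
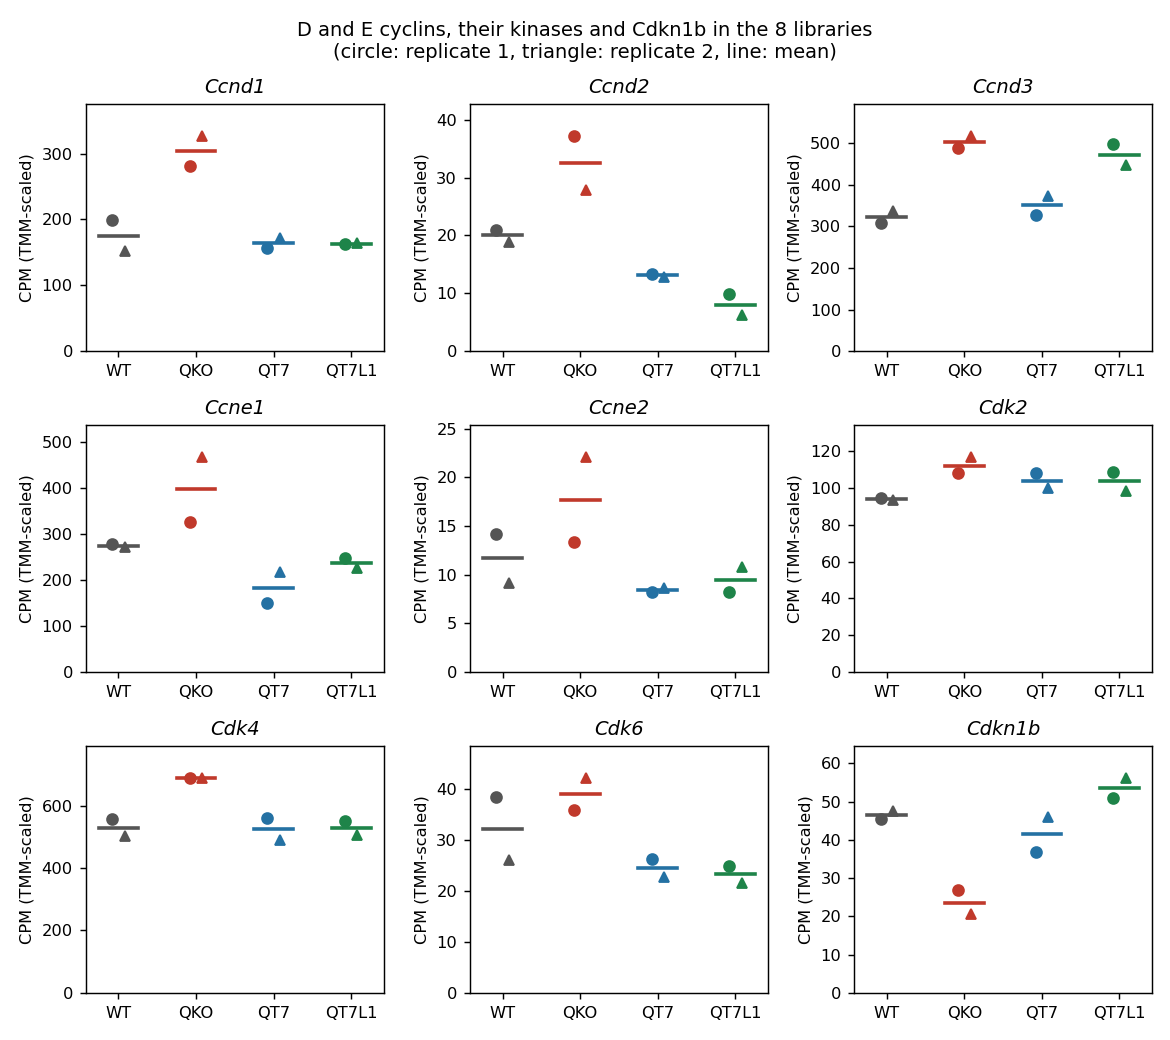
Levels of the 9 genes in CPM (TMM-scaled; vertical axes start at 0) in each of the 8 libraries by group; circles are replicate 1, triangles replicate 2 and lines the mean of 2. Both QKO libraries lie above all 6 others for Ccnd1, Ccnd2, Ccne1 and Cdk4 and below all 6 others for Cdkn1b, while Ccnd3 in QT7L1 (498 and 449 CPM) lies near QKO (490 and 518 CPM).

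In the plot of levels by library, the pair of QKO libraries stood above all 6 others for 4 of the genes, Ccnd1, Ccnd2, Ccne1 and Cdk4, and below all 6 others for 1, Cdkn1b. Over all genes, 19.6% stood above and 21.5% below in this way. For the other 4 genes the QKO libraries overlapped with at least 1 other. Called against WT and against both rescued lines in the same sense were Ccnd1, Ccnd2 and Cdk4 (higher in QKO, as for 6.17% of all genes) and Cdkn1b (lower in QKO, as for 8.19%). Taken pair by pair, the libraries of the groups did not overlap for 7 of the 9 genes in QKO against WT (69.4% of all genes), 8 in QT7 against QKO (63.2%) and 7 in QT7L1 against QKO (71.0%). They did not overlap for 4 in QT7 against QT7L1 (40.8%), 4 in QT7 against WT (47.6%) and 6 in QT7L1 against WT (50.7%).

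**Figure D2:**
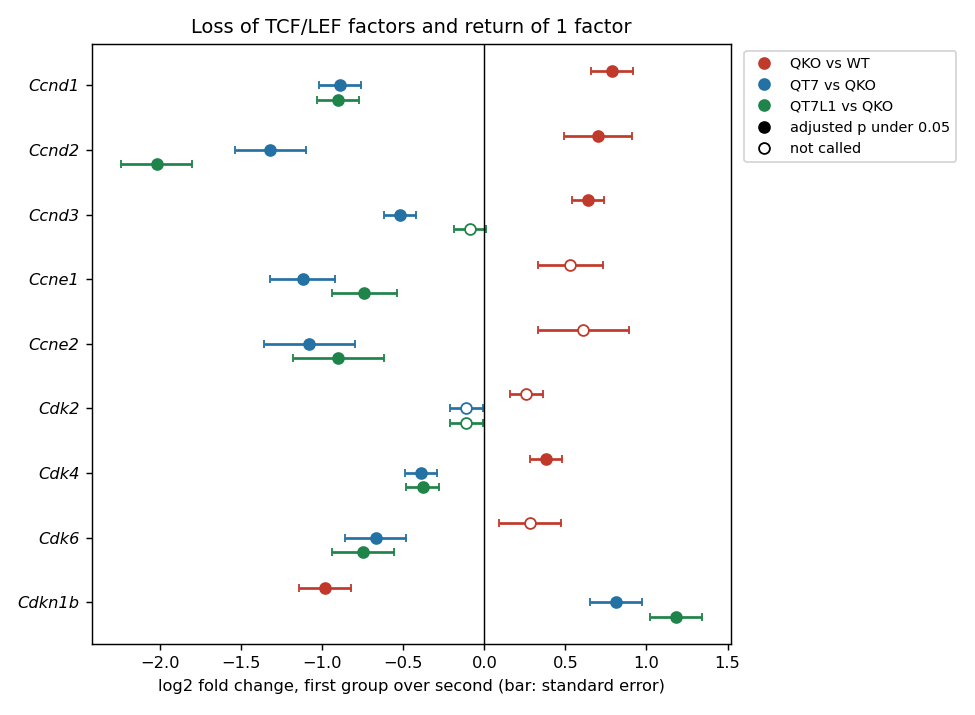
Log2 fold change (horizontal axis, first group over second) of the 9 genes (vertical axis) in QKO against WT, QT7 against QKO and QT7L1 against QKO; bars are standard errors and filled points have an adjusted p under 0.05. The QKO against WT points of the cyclins and kinases lie to the right of 0 and that of Cdkn1b (-0.98) to the left, and the points of both rescued lines lie on the other side.

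Ccnd1 encodes cyclin D1 (chromosome 7, 144929931 to 144939925 on GRCm38, minus strand). It stood at 199 and 152 CPM for WT, 281 and 327 for QKO, 156 and 172 for QT7, and 162 and 165 for QT7L1. The QKO libraries were both high, and the 3 other groups overlapped with each other. The fold of QKO over WT was 1.73 (log2 0.79 ± 0.13 (SE), adjusted p = 0.00337). QT7 was at 0.54 and QT7L1 at 0.537 of the QKO level (log2 -0.89 ± 0.13, adjusted p = 0.00201, and -0.90 ± 0.13, adjusted p = 0.00168). Between WT, QT7 and QT7L1 the levels did not differ beyond their spread (log2 -0.09 ± 0.13 for QT7 and -0.10 ± 0.13 for QT7L1 against WT, adjusted p = 0.758 and 0.769). The call in QKO held in each fit that left out 1 library, as did those of Ccnd3 and Cdkn1b.

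Ccnd2 encodes cyclin D2 (chromosome 6, 127125162 to 127152193, minus strand), another partner of CDK4 and CDK6. It was at 21 and 18.9 CPM for WT, 37.2 and 27.8 for QKO, 13.3 and 12.8 for QT7, and 9.81 and 6.21 for QT7L1. No 2 groups overlapped, and their order was QKO, WT, QT7 and QT7L1. QKO was 1.63-fold over WT (log2 0.70 ± 0.21, adjusted p = 0.0355). QT7 stood at 0.402 of QKO (log2 -1.32 ± 0.22, adjusted p = 0.00273). The largest difference among the 9 genes in the 3 comparisons with QKO was that of Ccnd2 in QT7L1, at 0.246 of QKO (log2 -2.02 ± 0.22, adjusted p = 0.000802). QT7L1 was also lower than WT (log2 -1.32 ± 0.22, adjusted p = 0.0313), while QT7 against WT (-0.61 ± 0.22, adjusted p = 0.137) and QT7 against QT7L1 (0.70 ± 0.22, adjusted p = 0.306) did not pass.

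Of the D-cyclin calls in QKO against WT, that of Ccnd2 was the one lost on leaving out a library. Its rise in QKO ended when a single WT or QKO library was dropped (adjusted p = 0.0872 for WT replicate 1, 0.2 for WT replicate 2, 0.247 for QKO replicate 1 and 0.0584 for QKO replicate 2) and without TMM scaling (0.054). Without QKO replicate 1, which has the highest fibroblast markers, its log2 difference was 0.47 in place of 0.70. Its fall in QT7L1 against WT ended without WT replicate 1 (0.228), WT replicate 2 (0.0692), QT7L1 replicate 1 (0.0753) or QT7L1 replicate 2 (0.227). The summed level of 7 neuroectoderm markers was 162 and 134 CPM for WT, 208 and 151 for QKO, 109 and 95.9 for QT7, and 101 and 90.1 for QT7L1, with Neurog2 at 0 counts throughout. The part of these markers, and of the fibroblast markers, in the Ccnd2 levels was not tested.

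Ccnd3 encodes cyclin D3 (chromosome 17, 47505051 to 47599691, plus strand). It was at 308 and 338 CPM for WT, 490 and 518 for QKO, 328 and 374 for QT7, and 498 and 449 for QT7L1. The libraries fell into a low pair of groups, WT and QT7, and a high pair, QKO and QT7L1, with overlap inside each pair and none between them. QKO was 1.56-fold over WT (log2 0.64 ± 0.10, adjusted p = 0.00268) and QT7 fell to 0.696 of QKO (-0.52 ± 0.10, adjusted p = 0.00584). QT7L1 did not differ from QKO beyond the spread (-0.09 ± 0.10, adjusted p = 0.536) and was 1.47-fold over WT (0.55 ± 0.10, adjusted p = 0.0423).

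The direct comparison of the rescued lines did not pass for Ccnd3 here. QT7 was at 0.741 of QT7L1 (log2 -0.43 ± 0.10), with adjusted p = 0.19 by edgeR and adjusted p = 0.0307 by DESeq2. In the authors' deposited table the same difference was -0.42 with an adjusted p of 0.0447. Without QT7 replicate 2, where calls over all genes rose as well, edgeR gave a log2 difference of -0.53. The call in QT7 against QKO ended without QKO replicate 2 (0.0512), and that in QT7L1 against WT on dropping a WT library, a QKO library or a QT7L1 library (adjusted p from 0.0738 to 0.328).

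**Figure D3:**
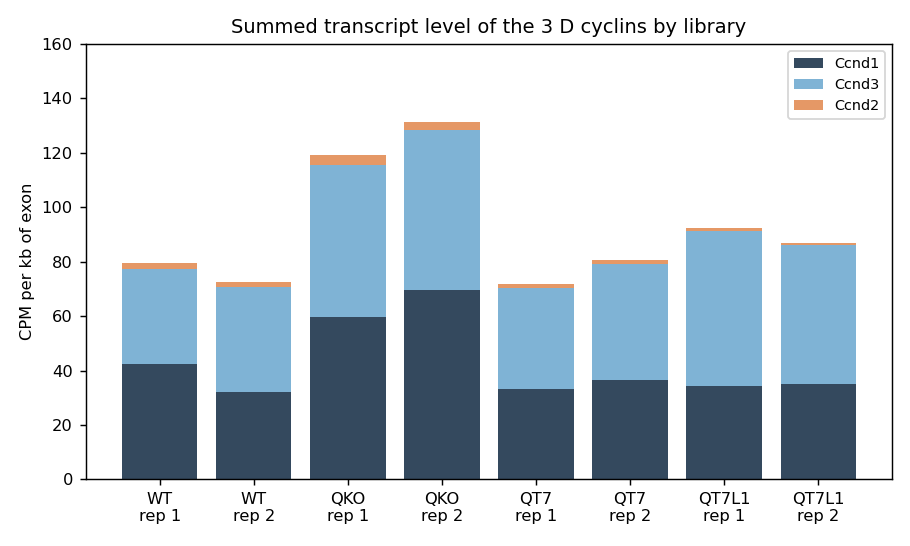
Summed level of the 3 D cyclins in CPM per kb of exon (vertical axis, from 0) in each of the 8 libraries, stacked by gene. The bars of QKO (119 and 131) are the tallest, Ccnd2 is a thin layer in every bar, and the Ccnd3 layer is the larger part in QT7L1 (61.6 and 58.9%).

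To set the D cyclins side by side, CPM values were divided by the exon length of each gene (4709 bases for Ccnd1, 9409 for Ccnd2 and 8775 for Ccnd3). Each length merges the exons of all annotated transcripts of the gene. Which transcripts were in use was not determined, so levels set between genes, their sums and their shares depend on these lengths. On this scale Ccnd1 and Ccnd3 were at like levels in WT (37.2 ± 7.13 and 36.8 ± 2.4 CPM per kb, SD, n = 2) and Ccnd2 at 2.12 ± 0.156. Before the division, WT averaged 175 CPM for Ccnd1 and 323 CPM for Ccnd3. Added up, the D cyclins came to 76.2 ± 4.88 CPM per kb for WT, 125 ± 8.49 for QKO, 76.2 ± 6.22 for QT7, and 89.5 ± 3.89 for QT7L1. QKO libraries (119 and 131) lay above the 6 others, which ran from 71.8 to 92.2. The mix also differed: Ccnd1 made up 53.1 and 44.3% of the sum for WT, 49.9 and 52.8% for QKO, 46.0 and 45.4% for QT7, and 37.3 and 40.3% for QT7L1. QT7L1 thus had the lowest share of Ccnd1 and the highest of Ccnd3 (61.6 and 58.9%, against 44.1 to 53.0% in the 6 other libraries). With 2 libraries against 2, an exact permutation test cannot go under p = 0.33, so these shares are given without a test.

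Ccne1 encodes cyclin E1 (chromosome 7, 38097984 to 38107534, minus strand). It was at 278 and 272 CPM for WT, 327 and 468 for QKO, 149 and 218 for QT7, and 249 and 227 for QT7L1. The QKO libraries were the highest and the QT7 libraries the lowest, with no overlap between any 2 groups, but clones within QKO and within QT7 stood far apart. Against WT, the 1.44-fold higher level in QKO did not pass (log2 0.53 ± 0.20, adjusted p = 0.0837). It did pass by DESeq2 (adjusted p = 0.013), and the authors' deposited table gave an adjusted p of 0.0221. Against QKO, Ccne1 fell to 0.461 in QT7 (-1.12 ± 0.20, adjusted p = 0.0061) and to 0.6 in QT7L1 (-0.74 ± 0.20, adjusted p = 0.0264). QT7 against WT (-0.59 ± 0.20, adjusted p = 0.142) did not pass here and did by DESeq2 (0.0172). The fall in QT7L1 ended without WT replicate 1 (0.0554), WT replicate 2 (0.056), QKO replicate 2 (0.168), QT7L1 replicate 1 (0.0945) or QT7L1 replicate 2 (0.152). Without QKO replicate 1 the log2 difference of QKO over WT was 0.76, and it stayed at 0.53 without either QT7 library. Without QT7 replicate 2, where calls over all genes rose, the log2 difference of QT7 over WT was -0.89.

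Ccne2, the gene of cyclin E2 (chromosome 4, 11191351 to 11204779, plus strand), was far lower. It was at 14.2 and 9.18 CPM for WT, 13.4 and 22.1 for QKO, 8.24 and 8.58 for QT7, and 8.21 and 10.8 for QT7L1. QKO replicate 2 was the highest, while QKO replicate 1 lay inside the range of WT. The difference between QKO and WT did not pass (log2 0.61 ± 0.28, adjusted p = 0.134) and ran from 0.19 without QKO replicate 2 and 0.32 without WT replicate 2 to 0.91 without QKO replicate 1 and 0.95 without WT replicate 1. Ccne2 fell in QT7 (-1.08 ± 0.28, adjusted p = 0.0197) and in QT7L1 (-0.90 ± 0.28, adjusted p = 0.0363) against QKO. Both calls ended without QKO replicate 2 (0.177 and 0.307), and also without either library of the rescued line (0.0717 and 0.0563 for QT7, 0.214 and 0.0873 for QT7L1). Per kb of exon, Ccne1 was 95.9 to 97.6% of the summed E cyclins in all 8 libraries. Ints8, which overlaps Ccne2 on the opposite strand, had 20343 counts over all libraries against 3409 for Ccne2, and the strand setting of the counting is not given in the sources used here. Ccnd1, Ccnd3, Cdk2 and Cdk4 also overlap a counted gene on the opposite strand; that gene had fewer counts than they did.

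Cdk4, the main partner of D cyclins here by transcript level (chromosome 10, 127063534 to 127067920, plus strand), was at 557 and 502 CPM for WT, 689 and 688 for QKO, 560 and 491 for QT7, and 550 and 507 for QT7L1. Both QKO libraries were higher than the rest, and the 3 other groups overlapped. The differences were small: QKO was 1.30-fold over WT (log2 0.38 ± 0.10, adjusted p = 0.0206), QT7 at 0.763 of QKO (-0.39 ± 0.10, adjusted p = 0.0175) and QT7L1 at 0.767 (-0.38 ± 0.10, adjusted p = 0.0174). All 3 calls ended without QKO replicate 1 (0.0921, 0.0759 and 0.0772) or QKO replicate 2 (0.104, 0.0882 and 0.0896). They also ended without WT replicate 2 (0.157, QKO against WT), QT7 replicate 2 (0.0816) and either QT7L1 library (0.0587 and 0.14), and QT7 against QKO did not pass without TMM scaling (0.0525). Per kb of exon Cdk4 made up 98.4 to 99.0% of the sum of Cdk4 and Cdk6.

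Cdk6 (chromosome 5, 3341485 to 3531008, plus strand), the other D-cyclin kinase, was at 38.5 and 26.1 CPM for WT, 35.9 and 42.3 for QKO, 26.3 and 22.7 for QT7, and 25.0 and 21.6 for QT7L1. The WT libraries reached from just under the higher QT7 library into the QKO range, and QKO lay above both rescued lines. QKO against WT did not pass (log2 0.28 ± 0.19, adjusted p = 0.297) and ran from 0.02 without WT replicate 2 to 0.58 without WT replicate 1. Cdk6 fell in QT7 (-0.67 ± 0.19, adjusted p = 0.0246) and in QT7L1 (-0.75 ± 0.19, adjusted p = 0.0154) against QKO. The first call ended on dropping a QKO library (0.053 for replicate 1 and 0.165 for replicate 2) or QT7 replicate 2 (0.0927), and the second without QKO replicate 2 (0.118), QT7L1 replicate 1 (0.056) or QT7L1 replicate 2 (0.123).

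Cdk2, the partner of E cyclins (chromosome 10, 128697939 to 128705031, minus strand), was the one gene of the set that passed in none of the 6 comparisons. It was at 94.4 and 93.5 CPM for WT, 108 and 117 for QKO, 108 and 100 for QT7, and 109 and 98.5 for QT7L1. The WT libraries were the lowest pair and the others overlapped. QKO against WT was at log2 0.26 ± 0.10 (adjusted p = 0.077), QT7 against QKO at -0.11 ± 0.10 (adjusted p = 0.451) and QT7L1 against QKO at -0.11 ± 0.10 (adjusted p = 0.415).

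Cdkn1b, the gene of the inhibitor p27 (chromosome 6, 134920401 to 134925513, plus strand), was the one gene of the set with a lower mean in QKO than in each other group. It was at 45.5 and 47.5 CPM for WT, 26.8 and 20.5 for QKO, 36.8 and 46.0 for QT7, and 50.9 and 56.2 for QT7L1. The QKO libraries were the lowest pair, WT and QT7 overlapped, and QT7L1 was the highest. QKO was at 0.508 of WT (log2 -0.98 ± 0.16, adjusted p = 0.00261). QT7 was 1.75-fold and QT7L1 2.27-fold over QKO (0.81 ± 0.16, adjusted p = 0.00525, and 1.18 ± 0.16, adjusted p = 0.00111). Neither rescued line was called against WT (-0.17 ± 0.15 and 0.20 ± 0.15, adjusted p = 0.599 and 0.569), though both QT7L1 libraries lay above both WT libraries. Without QKO replicate 2 the rise in QT7 did not pass (0.0572). Set against the summed D cyclins per kb, the ratio of D cyclins to Cdkn1b was 7.96 and 6.97 for WT, 20.3 and 29.2 for QKO, 8.89 and 7.98 for QT7, and 8.25 and 7.02 for QT7L1. That QKO stood apart from the 6 other libraries in this ratio follows from its parts. The QKO libraries were already the highest in the sum and the lowest in Cdkn1b.

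Leaving out 1 library lowered the counts of calls in some fits and raised them in others, such as QKO against WT without a QT7 library. Such a fit has 1 library in the group concerned. In the fits named below, calls over all genes fell as well. A call could end with the difference almost unchanged: for Cdk4 in QKO against WT, log2 was 0.38 in the full fit and 0.37 without either QKO library. In QKO against WT the 5 called genes became 3 without WT replicate 2 or without QKO replicate 2, namely Ccnd1, Ccnd3 and Cdkn1b. In QT7 against QKO the 8 became 3 without QKO replicate 2 (Ccnd1, Ccnd2 and Ccne1) and 5 without QT7 replicate 2. In QT7L1 against QKO the 7 became 3 without QKO replicate 2 or either QT7L1 library, each time Ccnd1, Ccnd2 and Cdkn1b.

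Between the rescued lines, 0 of the 9 genes were called by edgeR in QT7 against QT7L1, where 1 of 16515 genes (0.00606%) was called; 3 of the 9 had an unadjusted p under 0.05 (Ccnd2, Ccnd3 and Cdkn1b), and DESeq2 called 1 (Ccnd3). Against WT, 0 of the 9 were called in QT7 by edgeR, where 4.62% of all genes were called (2.37% higher and 2.25% lower); 2 had an unadjusted p under 0.05 (Ccnd2 and Ccne1), and DESeq2 called 1 (Ccne1). In QT7L1 against WT, 2 of the 9 were called, Ccnd3 as higher and Ccnd2 as lower, where 0.745% of all genes were called (0.297% higher and 0.448% lower), and DESeq2 also called 2. Without QT7 replicate 2 calls over all genes rose in both comparisons. In that fit log2 was -0.53 for Ccnd3 in QT7 against QT7L1 and -0.89 for Ccne1 in QT7 against WT. The 2 calls in QT7L1 against WT became 0 without any 1 of the WT or QT7L1 libraries, and 1 without either QKO library. In the authors' deposited tables the members called against QKO were those called here, each in the same direction, with Ccne1 in addition in WT against QKO.

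**Figure D4:**
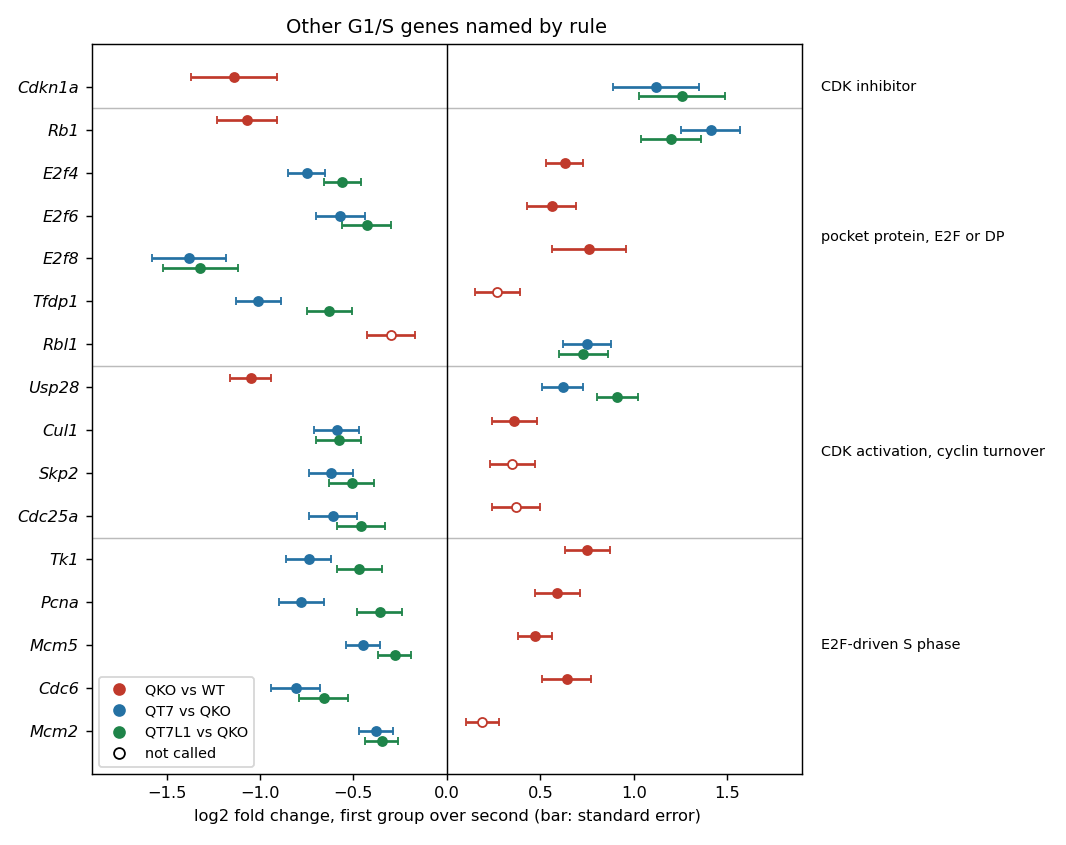
Log2 fold change (horizontal axis, first group over second) of 16 other genes of the G1/S pathway (vertical axis), grouped by role, in QKO against WT, QT7 against QKO and QT7L1 against QKO; bars are standard errors and open points were not called. Cdkn1a, Rb1 and Usp28 lie left of 0 in QKO against WT and right of 0 in both rescued lines, and the S-phase genes lie the other way round.

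Other genes of the pathway were taken from 4 lists. Over all genes, 26.4% were called in QKO against WT, 11.7% as higher and 14.7% as lower. In QT7 against QKO 14.8% were called higher and 12.1% lower, and in QT7L1 against QKO 15.9% and 13.9%. In QT7 against WT 4.62% were called. Among 6 other CDK inhibitors, 1 fell in QKO against WT and 5 did not pass, with a median log2 difference of -0.67 against -0.01 over all genes. This median rests on genes of low level that did not pass. Cdkn2a, Cdkn2b and Cdkn2c averaged 2.2, 1.09 and 0.525 CPM in QKO (log2 -0.62, -0.72 and -1.09). Cdkn1c (130 CPM, log2 0.27) and Cdkn2d (11.4 CPM, log2 0.02) were not lower in QKO. The gene that fell was Cdkn1a, which encodes p21, a target of p53. It was at 57.0 and 87.6 CPM for WT, 39.2 and 26.5 for QKO, 65.6 and 77.5 for QT7, and 81.6 and 75.2 for QT7L1. The QKO pair was the lowest (log2 -1.14 ± 0.23 against WT, adjusted p = 0.0102), and Cdkn1a rose in QT7 (1.12 ± 0.23) and QT7L1 (1.26 ± 0.23) against QKO. It was again 1 of the 6 in those comparisons, at a list median of 0.56 and 0.09. Its call in QKO against WT ended without WT replicate 2 (0.0588) or QKO replicate 2 (0.0622), and that in QT7 against QKO without QKO replicate 2 (0.0645).

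Among 13 pocket proteins, E2F and DP genes, 3 rose, 3 fell and 7 did not pass in QKO (median -0.13). Over all genes, 11.7% were called higher and 14.7% lower. Rb1, the retinoblastoma gene, was at 22.7 and 29.2 CPM for WT, 12.4 and 12.3 for QKO, 34.9 and 30.9 for QT7, and 25.9 and 31 for QT7L1. It fell in QKO (log2 -1.07 ± 0.16, adjusted p = 0.00202) and rose in QT7 (1.41 ± 0.16) and QT7L1 (1.20 ± 0.16). Of the E2F genes, E2f4 (0.63 ± 0.10), E2f6 (0.56 ± 0.13) and E2f8 (0.76 ± 0.20) rose in QKO and the other 5 did not pass. In QT7 against QKO 4 of the 13 rose and 5 fell, and in QT7L1 against QKO 5 rose and 5 fell. Over all genes 26.9% and 29.7% were called in these comparisons. E2f8 fell in both (-1.38 ± 0.20 and -1.32 ± 0.20), as did Tfdp1, a DNA-binding partner of E2F (-1.01 ± 0.12 and -0.63 ± 0.12), and Rbl1, the gene of the pocket protein p107, rose in both (0.75 ± 0.13 and 0.73 ± 0.13). In QT7 against WT, 1 of the 13 was called, Tfdp1, which fell by 0.74 on the log2 scale; this ended without WT replicate 1 (0.0947) and with only these groups (0.0642). The calls of E2f6 and E2f8 in QKO ended without WT replicate 2 (adjusted p = 0.109 and 0.176) or QKO replicate 2 (0.116 and 0.182), and that of E2f8 with only these groups (0.0547).

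Among 16 genes of CDK activation and cyclin turnover, 1 rose, 1 fell and 14 did not pass in QKO (median 0.23). The share called was lower than the 26.4% over all genes. Usp28, a deubiquitinase that counteracts the ubiquitin ligase subunit Fbxw7, fell (log2 -1.05 ± 0.11, adjusted p = 0.000617). Cul1, the scaffold of SCF ubiquitin ligases, rose (0.36 ± 0.12, adjusted p = 0.0451), a call that ended on dropping a library of WT, of QKO or of QT7L1 (0.0669 to 0.264), with library totals (0.109) and under the replicate block (0.0516). In each rescued line against QKO 1 of the 16 rose and 3 fell. This share was no higher than that over all genes (26.9% called in QT7 and 29.7% in QT7L1). Usp28 rose (0.62 ± 0.11 in QT7 and 0.91 ± 0.11 in QT7L1), and Cul1 (-0.59 ± 0.12 and -0.58 ± 0.12), Skp2, which marks p27 for degradation (-0.62 ± 0.12 and -0.51 ± 0.12), and Cdc25a, a phosphatase that activates CDK2 (-0.61 ± 0.13 and -0.46 ± 0.13), fell. Without QKO replicate 2 the calls of Cul1, Skp2 and Cdc25a ended in QT7 (0.0579, 0.0621 and 0.0744) and in QT7L1 (0.0608, 0.12 and 0.218). In QT7L1 they ended also without QT7L1 replicate 1 (0.0568, 0.0712 and 0.117), and those of Skp2 and Cdc25a without QT7L1 replicate 2 (0.0719 and 0.107). In QT7 against WT 1 of the 16 was called, Usp28, which fell by 0.43 on the log2 scale; this ended on dropping any library but QT7 replicate 2 (0.0705 to 0.213), with library totals (0.0567) and with only these groups (0.141).

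Against 11.7% of all genes called higher in QKO, 7 of 17 S-phase genes driven by E2F rose and 10 did not pass (median 0.24). The nucleotide enzyme gene Tk1 (log2 0.75 ± 0.12), the replication clamp Pcna (0.59 ± 0.12), the helicase subunit Mcm5 (0.47 ± 0.09) and the origin-licensing factor Cdc6 (0.64 ± 0.13) were among them. In QT7 against QKO 9 fell and 8 did not pass (median -0.30), where 12.1% of all genes were called lower. Pcna (-0.78 ± 0.12), Tk1 (-0.74 ± 0.12) and Cdc6 (-0.81 ± 0.13) were among those that fell. In QT7L1 against QKO 6 fell and 11 did not pass (median -0.20), where 13.9% of all genes were called lower. Cdc6 (-0.66 ± 0.13), Tk1 (-0.47 ± 0.12) and Mcm2 (-0.35 ± 0.09) were among those that fell. In QKO the calls of Pcna, Mcm5 and Cdc6 ended without WT replicate 2 (0.0674, 0.0577 and 0.0688), and those of Pcna and Cdc6 without QKO replicate 2 (0.0583 and 0.0719). In QT7L1 those of Cdc6, Tk1 and Mcm2 ended without QKO replicate 2 (0.0549, 0.125 and 0.0906). Those of Tk1 and Mcm2 ended also without QT7L1 replicate 1 (0.0535 and 0.104) or QT7L1 replicate 2 (0.108 and 0.089), and that of Mcm2 without QKO replicate 1 (0.0687).

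Genes whose levels followed those of Ccnd1 most closely over the 8 libraries, among 7767 others of sufficient level, were Chrna9 (Pearson r = 0.992 of log2 CPM), Bpnt1 (0.991) and Rsl1d1 (0.991). Chrna9, a nicotinic receptor subunit, was at 17.9 ± 3.05 CPM for WT, 39.8 ± 5.11 for QKO, 16.5 ± 2.21 for QT7, and 15.3 ± 0.64 for QT7L1 (SD, n = 2). For Ccne1, Ss18 (0.99) and Rnf126 (0.987) were among the closest. Within the set, Ccnd1 followed Cdk4 (0.906), Ccne2 (0.897) and Cdkn1b (-0.892) more closely than Ccnd3 (0.557). These values describe 8 libraries in which QKO stands apart, and they carry no test.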

How the data were processed

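RNA was sequenced from 8 libraries (4 groups of 2), with 250 ng total RNA as input to a stranded mRNA kit, per the labels' protocols. Per the submitters' processing notes, the tools were bcl2fastq 1.8.4, STAR 2.4.0f1 and HTSeq, with mm10 (GRCm38); DESeq2 is listed as version 2.1.8.3. For the counting, neither strand setting nor handling of multiply mapped reads is stated in the sources used here. The authors deposited raw counts per Ensembl gene for each library. The deposited comparison tables hold, per the file headers, a normalised signal averaged by the authors, a log2 fold change and its standard error, a test score, and raw and adjusted p-values; they were used for gene symbols and where named.

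The analysis used edgeR 4.0.16 under R 4.3.3. filterByExpr kept 16515 genes, TMM factors ran from 0.9549 to 1.0279, and a single robust quasi-likelihood fit covered all 8 libraries, with 1 mean for each group and 4 residual degrees of freedom. All 6 pairs were tested (F test, 2-sided), with Benjamini-Hochberg adjustment over all genes and calls under 0.05. Standard errors are the size of the log2 difference over the root of F. Log2 CPM used a prior count of 2. Exon lengths and coordinates are from GENCODE M21 on GRCm38. The procedure was also run on simulated data with a small set of genes changed, in QKO only and equally in both directions. That setting differs from these data, where far more genes were called, and its outcome is not reported here. With 2 libraries per group, the spread per gene is estimated over all 4 groups. No replicate pair was a duplicate: chi-square over its degrees of freedom was 17.01 to 52.25. The WT libraries are named as biological replicates but carry no clone. Their part of the spread estimated over all 4 groups may therefore be technical.

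Alternatives were other scaling, no filter, DESeq2 1.42.0, only the 2 groups compared, a replicate block and each library left out. The 9 genes and the lists were chosen with earlier results of these data known. Besides the 9 genes, genes were named by rule: up to 4 called genes per list and comparison with the smallest adjusted p, and the 3 genes closest in pattern to Ccnd1 and to Ccne1 whose average log2 CPM reached 4, without predicted genes; the text draws its examples from these, and some of them are not reported here. Marker lists were stem cell, fibroblast, endoderm, neuroectoderm, mesoderm and trophoblast; the summed levels of those not given above were 6390 to 7560 CPM (stem cell), 46.8 to 121 (endoderm), 17.0 to 28.6 (mesoderm) and 58.1 to 139 (trophoblast).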

Additional observations from a re-analysis of the deposited data

How the results depend on the processing

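The counts of genes called, the tests of the 9 genes and those of the list genes named by rule were recomputed under 14 alternatives. The share of Ccnd1 among the D cyclins was recomputed on leaving out libraries. Other values, such as list medians, marker sums, TCF/LEF levels and pattern correlations, were not recomputed. The numbers of the 9 genes called stayed within 1.5 times in the 3 comparisons with QKO under other scaling, no filter, DESeq2, only the 2 groups compared and the replicate block. Leaving out 1 library gave 3 to 6 (QKO against WT), 3 to 8 (QT7 against QKO), 3 to 7 (QT7L1 against QKO), 0 to 1 (QT7 against QT7L1), 0 to 1 (QT7 against WT) and 0 to 2 (QT7L1 against WT) of the 9, and 1272 to 5497, 1432 to 4355, 1704 to 5971, 0 to 1564, 52 to 2023 and 0 to 517 of all genes. QT7 against QT7L1 called 4 genes with library totals, 1030 without the filter, 232 by DESeq2, 20 with only these groups and 2 under the replicate block; of the 9 it called 3 without the filter and 1 by DESeq2. QT7 against WT called 2203 without the filter, 1304 by DESeq2 and 117 with only these groups (of the 9, 2 without the filter and 1 by DESeq2), and QT7L1 against WT 1248, 575 and 614. The cause of these shifts was not tested.

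Among the values recomputed, directions turned only for differences that were not called, the largest of them Ccne2 in QT7L1 against WT (log2 -0.30). In QT7 against QT7L1 these were Ccnd1 (-0.00012 by DESeq2, -0.07 without QT7 replicate 2, -0.0064 without QT7L1 replicate 1), Ccne2 (0.03 without QT7L1 replicate 2), Cdk2 (-0.0017 by DESeq2, -0.0013 and -0.00076 without QKO replicate 1 and 2, -0.05 without QT7 replicate 1, -0.07 without QT7L1 replicate 2), Cdk4 (0.03 with library totals, 0.00013 without the filter, 0.08 without QT7 replicate 2, 0.05 without QT7L1 replicate 1) and Cdk6 (-0.03 without QT7 replicate 1 or QT7L1 replicate 2). In QT7 against WT they were Ccnd1 (0.11 without WT replicate 1) and Cdk4 (0.008 with library totals, 0.0029 without the filter, 0.07 without WT replicate 1, 0.08 without QT7 replicate 2). In QT7L1 against WT they were Ccnd1 (0.11), Ccne2 (0.05) and Cdk4 (0.07) without WT replicate 1, and Cdk4 also without the filter (0.0028), without QT7 replicate 1 (0.0012) or 2 (0.0016) and without QT7L1 replicate 2 (0.06). At the other end of their range on leaving out 1 library stood, in QT7 against QT7L1, Ccne2 (-0.36, without QT7L1 replicate 1), Cdk4 (-0.10, without QT7 replicate 1) and Cdk6 (0.18, without QT7L1 replicate 1), in QT7 against WT Ccnd1 (-0.28, without WT replicate 2) and Cdk4 (-0.10, without QT7 replicate 1), and in QT7L1 against WT Ccnd1 (-0.28), Ccne2 (-0.58) and Cdk4 (-0.08), all without WT replicate 2. The replicate number is not known to pair the libraries: deviations of same-numbered libraries correlated at -0.205 to 0.164. With the replicate block, 4303 genes were called in QKO against WT, 4390 in QT7 against QKO and 4853 in QT7L1 against QKO, and none of the 9 changed its call.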
